A study of Mus musculus with 8 samples.

Results

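The 10 genes described here mark or build the identity of primordial germ cells (PGCs), from which eggs and sperm descend: Prdm1, Prdm14, Tfap2c, Dppa3, Nanos3, Dnd1, Ifitm1, Ifitm3, Alpl and Fut4. They were chosen by name from what is known of germ cell specification, with earlier results of these data known. Each was read from the microarray probe that carries its symbol alone. Where a gene had several such probes, the probe of highest mean was used. All 10 were measured, among 19938 genes tested. The PGCs came from 4 embryos homozygous for the Y324C change in the receptor tyrosine kinase Ror2 (Ror2Y324C/Y324C) and 4 wild-type embryos (WT, Ror2+/+) at embryonic day 9.5, with 1 array per embryo. Both genotypes came from crosses of heterozygotes of mixed strain. The fathers were homozygous for the Oct4-ΔPE GFP transgene, so each embryo inherited a copy, and GFP-positive cells were sorted from the posterior of each embryo. The mutation is present in every cell of the embryo, so PGCs and their surroundings carried it alike. The mutant embryos 1 to 4 had 24, 22 to 23, 23 and 21 to 22 somites, against 25, 25, 22 and 21 somites in WT embryos 1 to 4.

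PGC fate is induced in the proximal epiblast of the mouse by bone morphogenetic protein (BMP) signals from neighbouring extraembryonic tissue. Prdm1, Prdm14 and Tfap2c encode the transcriptional regulators that then silence the somatic programme and restore pluripotency genes. Nanos3 and Dnd1 encode RNA-binding proteins that migrating PGCs need to survive. Dppa3 (Stella), the Ifitm (fragilis) genes, alkaline phosphatase (Alpl) and the SSEA1 carbohydrate, which fucosyltransferases such as Fut4 can make, have long served as markers of these cells.

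Upstream sequence of 4 members is shown so that the regulatory letters nearest to the highest (Ifitm1, Ifitm3), a widely spread (Nanos3) and the lowest (Fut4) member can be read beside their values. Each run is 280 bases from RefSeq (GRCm38.p6), 250 before and 30 after an annotated start, 5′ to 3′ on the strand of the gene. Capitals in Ifitm3 mark matches to the core of the interferon-stimulated response element, GAAA repeated after a gap of 2 bases, and capitals in Nanos3 and Fut4 mark matches to GCCNNNGGC, the motif bound by AP-2 factors such as the product of Tfap2c. Both strands were searched.
Ifitm1, chr7:140967826-140968105, plus strand: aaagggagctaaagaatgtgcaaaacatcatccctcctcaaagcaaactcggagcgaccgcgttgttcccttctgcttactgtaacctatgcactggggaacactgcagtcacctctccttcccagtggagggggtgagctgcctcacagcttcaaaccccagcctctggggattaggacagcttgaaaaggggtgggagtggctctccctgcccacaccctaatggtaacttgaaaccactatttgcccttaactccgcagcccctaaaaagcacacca
Ifitm3, chr7:141010715-141010994, minus strand: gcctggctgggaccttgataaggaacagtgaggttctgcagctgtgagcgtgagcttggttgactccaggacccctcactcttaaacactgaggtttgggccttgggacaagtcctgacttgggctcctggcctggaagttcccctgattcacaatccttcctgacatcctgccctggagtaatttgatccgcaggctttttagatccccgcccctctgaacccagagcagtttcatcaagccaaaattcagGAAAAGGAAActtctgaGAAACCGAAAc
Nanos3, chr8:84176523-84176802, minus strand: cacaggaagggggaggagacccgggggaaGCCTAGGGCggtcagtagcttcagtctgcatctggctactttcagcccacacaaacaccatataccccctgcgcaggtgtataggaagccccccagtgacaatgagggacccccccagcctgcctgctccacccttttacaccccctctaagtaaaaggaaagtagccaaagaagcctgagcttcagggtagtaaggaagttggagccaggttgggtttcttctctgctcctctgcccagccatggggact
Fut4, chr9:14752093-14752372, minus strand: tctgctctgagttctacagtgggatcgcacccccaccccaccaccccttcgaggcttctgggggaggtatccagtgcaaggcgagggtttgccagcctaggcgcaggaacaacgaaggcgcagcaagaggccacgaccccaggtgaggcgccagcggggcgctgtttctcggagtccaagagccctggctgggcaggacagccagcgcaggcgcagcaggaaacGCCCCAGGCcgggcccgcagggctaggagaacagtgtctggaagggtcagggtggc

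Such windows were read for 6 of the 10 members (7 windows, since Alpl has several starts). No member window from chromosome 18, where Dnd1 lies, was used, while the shares of all windows were not limited in this way. The interferon motif occurred in 1 of the 7, that of Ifitm3, where 2 matches lay within the 30 bases after the start; it occurred in 3.28% of all 32851 windows. The AP-2 motif occurred in 3 of the 7, those of Alpl, Nanos3 (from position -221) and Fut4 (from position -26), and in 15.4% of all windows. Of the other motifs searched, the GC box GGGCGG was present in the windows of Alpl, Ifitm3 and Nanos3 and in 34.7% of all windows. In Nanos3 it overlaps the AP-2 match. The octamer ATGCAAAT, which Oct4 can bind, was present in 0 of the 7 and in 1.69% of all windows. The windows of Ifitm1, Ifitm3 and Nanos3 held 5, 4 and 3 CpG dinucleotides, and those of Fut4 and Prdm1 held 16 and 17. Those of Alpl held 24 and 4, and the median of all windows was 6.

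On every array, 9 of the 10 members lay above the 75th percentile of all genes, and 5 (Ifitm1, Ifitm3, Dppa3, Alpl and Tfap2c) lay above the 95th. Fut4 was the exception, between the 12.7th and the 23.0th percentile. The deposited values name no unit, and their range is that of log2 values. A percentile places a probe on its own array, and because probes differ in how well they bind, it does not order the transcript amounts of different genes. Pou5f1 (Oct4), whose regulatory sequence drives the reporter, averaged 11.24 ± 0.12 in mutants and 11.13 ± 0.18 in WT (log2, SD, n = 4 each). It lay at the 99.3rd percentile of gene means. Because the cells were selected on that reporter and no array holds unsorted cells, this level does not measure the purity of the sort. Kit, the receptor of migrating PGCs, averaged 10.59 ± 0.07 in mutants and 10.44 ± 0.15 in WT. Ror2 itself averaged 7.81 ± 0.34 in mutants and 7.69 ± 0.21 in WT, and since Y324C alters 1 residue of the protein, its transcript level does not check the labels.

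**Figure D1:**
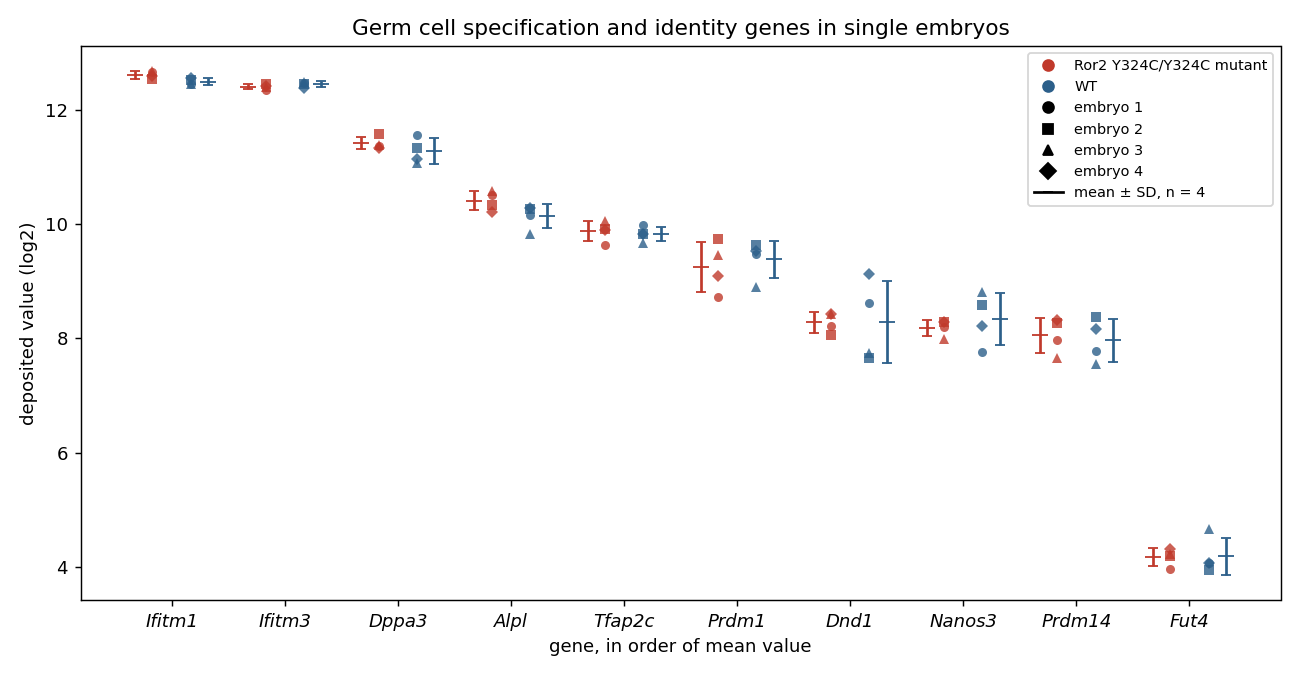
Deposited log2 values (vertical axis) of the 10 members in order of mean value (horizontal axis), with 1 point per embryo, mutants in red on the left and WT in blue on the right of each pair, and bars for mean ± SD over 4 embryos. The genotypes overlap for each of the 10 genes, and Dnd1 and Nanos3 spread more widely over WT than over mutant embryos.

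Arrays differed in ways the genotypes do not explain. The array of WT embryo 3 had the narrowest distribution, with an SD over genes of 1.77, against 1.82 to 1.95 on the other 7. The high Xist values (6.31 in mutant 4 and 7.07 in WT 3, against 3.50 to 4.11 elsewhere) and low Y-linked values set these 2 embryos apart from the other 6 in sex. Markers of other cell types had low means, apart from those of the hindgut: the mean over the measured markers ran from 4.52 to 4.81 in mutants and 4.65 to 5.07 in WT for macrophages (12 of 12 measured), from 4.90 to 5.09 in mutants and 4.84 to 5.54 in WT for primitive red cells (9 of 10), from 4.88 to 4.99 in mutants and 4.77 to 5.10 in WT for endothelium (8 of 8), from 4.99 to 5.30 in mutants and 4.90 to 5.43 in WT for posterior mesenchyme (9 of 9) and from 6.06 to 6.70 in mutants and 5.94 to 6.52 in WT for hindgut epithelium (10 of 11). The median of all gene means was 5.61. WT 3 had the highest mean of the first 4 of these lists and the lowest mean of the 10 members (9.32, against 9.36 to 9.53 in the mutants and 9.43 to 9.53 in the other WT embryos). It also had the highest median over genes (5.73). WT 3 was the highest array for 24.2% of all genes but for 14.3% of those above the median level. It was the lowest for 12.1% and 20.7%. The part of its narrow distribution in the list means was not tested. In bulk samples such as these, fewer cells of a type and less RNA per cell cannot be told apart. The part of these differences between arrays in the results below was not tested beyond leaving the arrays out.

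The comparison between genotypes asked whether PGCs that migrate with a changed Ror2 hold the transcripts of germ cell identity at other levels. No member passed. Of the 10 genes, 0 had an adjusted p under 0.05 in limma, a linear model over all genes with Benjamini-Hochberg adjustment, and the share of all genes that passed was 0%. At an unadjusted p under 0.05 there were also 0 members, beside 4.68% of all genes (934, of which 2.72% of all genes were higher and 1.96% lower in mutants). The 4 mutant values overlapped the 4 WT values for all 10 members, whereas they stood apart for 2.52% of all genes (mutants all above WT for 1.08% and all below for 1.44%). The differences (mutant minus WT) were above 0 for 5 members and below 0 for 5, with a median of 0.02 on the log2 scale, and over all genes the median was -0.02. Each 95% interval held 0, and together they ran from -0.67 to 0.65.

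**Figure D2:**
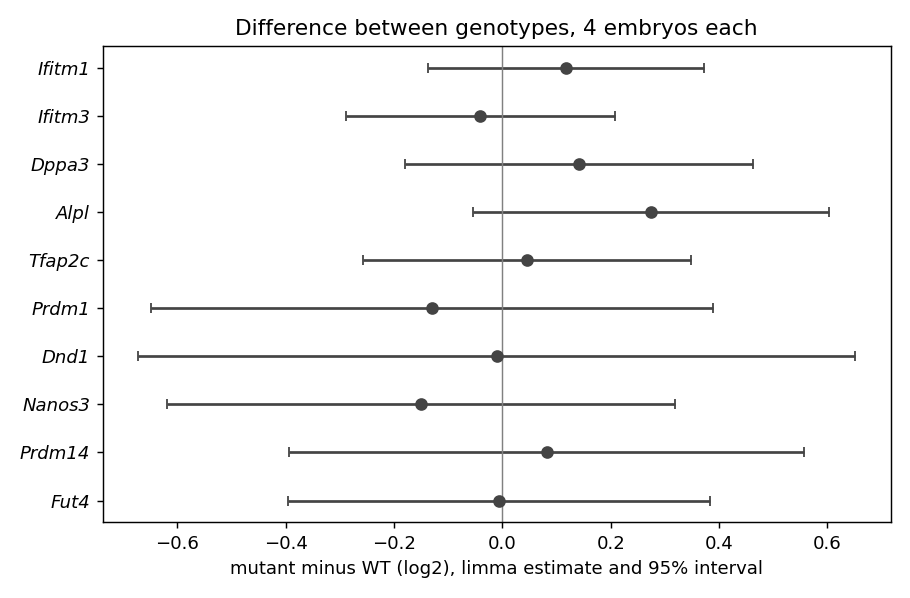
Limma estimate of mutant minus WT (horizontal axis, log2) with its 95% interval for each member (vertical axis), 4 embryos per genotype. Each of the 10 intervals crosses 0, and the widest, that of Dnd1, runs from -0.67 to 0.65.

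Among the regulators that start the programme, Tfap2c, an AP-2 transcription factor, varied least. Its values were 9.64, 9.91, 10.05 and 9.89 in mutants 1 to 4 and 9.98, 9.82, 9.67 and 9.83 in WT 1 to 4. The lowest and the highest value were both mutant, and the difference was 0.05 ± 0.14 (SE), with an interval from -0.26 to 0.35.

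Prdm1 (Blimp1), the repressor that marks the founding PGCs, stood at 8.72, 9.74, 9.45 and 9.09 in mutants and at 9.47, 9.63, 8.90 and 9.52 in WT. It ranged over 1.01 among the mutants, and its SD there (0.44) was higher than that of 93.3% of the 1000 genes nearest to it in level. The difference was -0.13 ± 0.23 (SE; limma adjusted p = 0.979), and its sign turned without mutant 1 (0.04). Prdm14, which acts with Prdm1 and helps to restore pluripotency, stood at 7.97, 8.26, 7.65 and 8.32 in mutants and at 7.77, 8.38, 7.55 and 8.16 in WT. Low and high values occurred in both genotypes, and the difference was 0.08 ± 0.21 (SE), turning to -0.06 without WT 3 and to -0.01 without mutant 4.

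The RNA-binding genes were the most uneven among WT embryos. Dnd1, whose loss depletes PGCs and on some strain backgrounds leads to testicular tumours, stood at 8.22, 8.05, 8.42 and 8.42 in mutants and at 8.62, 7.65, 7.75 and 9.13 in WT. All 4 mutant values lay inside the WT range, 2 WT embryos lay below them and 2 above. Its SD was 0.18 in mutants and 0.71 in WT, and the WT value was higher than that of 95.5% of the 1000 genes nearest in level. The means were alike, with a difference of -0.01 ± 0.30 (SE) whose interval, from -0.67 to 0.65, leaves room for a fold from 0.63 to 1.57.

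Nanos3, which protects migrating PGCs from cell death, stood at 8.19, 8.29, 7.99 and 8.28 in mutants and at 7.76, 8.58, 8.81 and 8.22 in WT. Here too the mutant values lay inside the WT range, with an SD of 0.14 in mutants and 0.46 in WT. WT 1 and 4 were the higher WT embryos for Dnd1, and WT 2 and 3 the higher for Nanos3. This was seen after the values were known, in 4 embryos. The difference of Nanos3 was -0.15 ± 0.21 (SE), and 0.0053 without WT 3.

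The spread was compared across all members. The SD was larger in WT than in mutants for 7 of the 10 members, and for 59.2% of all genes. The median SD of the members was 0.16 in mutants and 0.28 in WT, against 0.21 in mutants and 0.25 in WT over all genes. Without WT 3 the count of 7 became 4, and the share of all genes 51.9%. Without that array the SD of WT was 0.75 for Dnd1 and 0.41 for Nanos3, close to the values with it, but 0.08 for Fut4, 0.07 for Alpl and 0.09 for Prdm1. No test of spread was made.

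**Figure D3:**
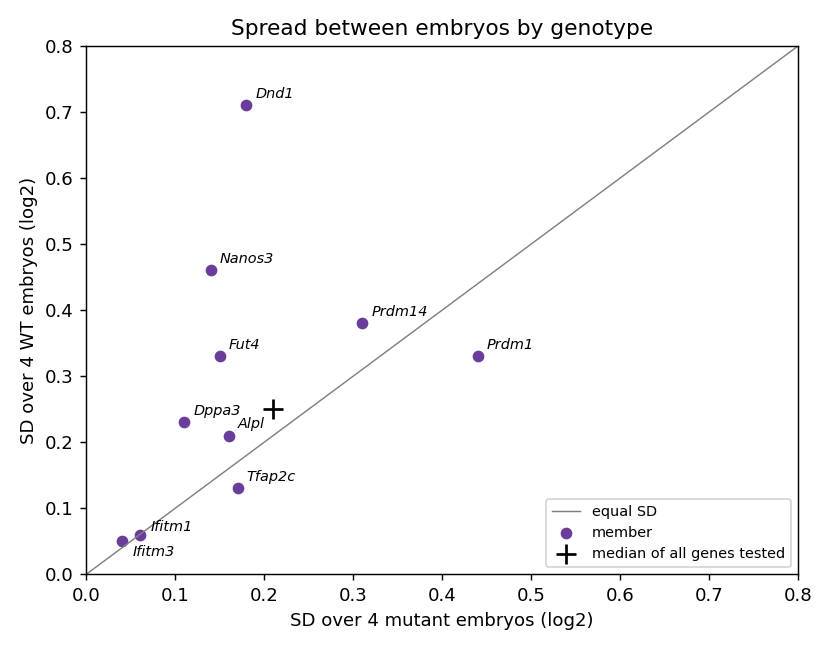
SD of the log2 values over 4 mutant embryos (horizontal axis) and over 4 WT embryos (vertical axis), 1 point per member, with the median of all genes as a cross and a line of equal SD. Dnd1 (0.18 in mutants, 0.71 in WT) and Nanos3 (0.14 in mutants, 0.46 in WT) lie farthest above the line, and Prdm1 (0.44 in mutants, 0.33 in WT) lies below it.

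Dppa3, which protects maternal methylation marks in the zygote and marks PGCs from early on, stood at 11.37, 11.57, 11.38 and 11.33 in mutants and at 11.56, 11.33, 11.07 and 11.13 in WT. The mutants lay within the upper part of the WT range apart from mutant 2, which lay just above it. The difference was 0.14 ± 0.15 (SE; interval -0.18 to 0.46), and it was 0.07 without WT 3, 0.09 without WT 4 or without mutant 2, and 0.24 without WT 1. Dppa3 had a second probe, at 11.04, 10.96, 10.96 and 10.46 in mutants and at 11.12, 10.98, 9.96 and 10.61 in WT. On it mutant 4 and WT 3, the embryos of high Xist, were the lowest of their genotypes, and the difference was 0.19 ± 0.25 (SE).

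The probes differ in where they fall in the array's probe numbers. For the other members' probes, at least 18 of the 20 single-gene probes nearest in number belong to genes of the member's own chromosome. Of the 20 nearest single-gene probes of the second Dppa3 probe, 18 belong to genes of chromosome 6, where Dppa3 lies. All 20 nearest to the probe of higher mean, which the rule used, belong to genes of the X chromosome. Likewise, all 20 neighbours of the Ifitm1 probe used here belong to genes of chromosome 7, where Ifitm1 lies, while 19 of the 20 neighbours of its second probe belong to chromosome 8. The files give no probe positions, so signal from near-identical copies elsewhere in the genome cannot be told apart from that of Dppa3 and Ifitm1, and their values are uncertain in this respect.

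The Ifitm genes, interferon-inducible membrane proteins of which Ifitm3 (fragilis) marks the precursors of PGCs, were the highest and the tightest members. Ifitm1 stood at 12.65, 12.53, 12.67 and 12.58 in mutants and at 12.44, 12.51, 12.44 and 12.56 in WT, and held a rank from 19 to 37 among the 19938 genes. In mutants 3 of 4 values lay above all WT values. The difference was 0.12 ± 0.11 (SE), or 1.09-fold (interval 0.91 to 1.29). Its SD was 0.06 in both genotypes, which is below the SE, because limma draws the variance of each gene toward a common value. With a variance prior that follows the level, the SE was 0.05 and the unadjusted p 0.0370 (limma adjusted p = 0.969). The second Ifitm1 probe gave a difference of 0.08 ± 0.12 (SE).

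Ifitm3 stood at 12.35, 12.44, 12.40 and 12.42 in mutants and at 12.47, 12.44, 12.49 and 12.38 in WT, at ranks from 25 to 41. All 8 embryos lay within 0.14. Among the 1000 genes nearest in level its SD was at the 3.9th percentile in mutants and the 2.9th in WT. With so few genes ranked above Ifitm3, nearly all of those 1000 lay below it, so they do not match its level. The difference of -0.04 ± 0.11 (SE) turned to 0.02 after median centring. Saturation of the brightest probes was not tested. Ifitm2, a paralogue, averaged 11.78 ± 0.06 in mutants and 11.70 ± 0.07 in WT, while Ifitm6 averaged 3.96 ± 0.18 in mutants and 4.28 ± 0.66 in WT.

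Alpl, the phosphatase behind the classical stain of PGCs, showed the largest difference of the 10. It stood at 10.51, 10.33, 10.57 and 10.21 in mutants and at 10.16, 10.26, 9.83 and 10.28 in WT. The mutants 1, 2 and 3 lay above all WT values and mutant 4 within them. The difference was 0.27 ± 0.15 (SE), or 1.21-fold (interval 0.96 to 1.52), with an unadjusted limma p of 0.0935 and an adjusted p of 0.973. Leaving out 1 embryo at a time, it ran from 0.17 (without WT 3, the lowest embryo) to 0.34 (without mutant 4).

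Fut4, an enzyme that adds fucose to make the SSEA1 epitope, stood at 3.96, 4.20, 4.23 and 4.32 in mutants and at 4.07, 3.94, 4.67 and 4.07 in WT. WT 3 was the highest and the other WT embryos lay within the mutant range or just below it. The difference was -0.01 ± 0.18 (SE), and 0.16 without WT 3. No background level is known for these arrays, so Fut4 cannot be called expressed or absent. Fut9, the enzyme held to make most of this epitope in the early mouse embryo, was also low, with 5.36 ± 0.30 in mutants and 5.09 ± 0.57 in WT.

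In order of mean value the members ran Ifitm1, Ifitm3, Dppa3, Alpl, Tfap2c, Prdm1, Dnd1, Nanos3, Prdm14 and Fut4. Neighbours kept this order on all 8 arrays except for 3 pairs: Ifitm1 stood above Ifitm3 on 6 arrays, Dnd1 above Nanos3 on 5 and Nanos3 above Prdm14 on 6. WT 3 was the lowest array for 4 members (Ifitm1, Dppa3, Alpl and Prdm14) and the highest for 3 (Ifitm3, Nanos3 and Fut4). WT 3 was the lowest array for 12.1% of all genes, 20.7% of those above the median level and 30.8% of those of at least the level of Prdm14, which Fut4 does not reach. It was the highest for 24.2% of all genes and 14.3% of those above the median level. After quantile normalization WT 3 was the lowest for 1 member, and after median centring for 6.

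The relation to stage was fitted as a slope per somite in a limma model that also held genotype. A labelled range of somites entered as its midpoint. Of the 10 members 0 passed, as did 0% of all genes, and 0 members had an unadjusted p under 0.05, beside 9.74% of all genes (1942, with 5.02% of all genes climbing and 4.72% falling with somite number). The slopes were positive for 5 members, as for 40.5% of all genes, and negative for 5, and each interval held 0. Dppa3 had a slope of 0.07 ± 0.05 (SE) log2 per somite with an interval from -0.03 to 0.18 (limma adjusted p = 0.584), or 0.30 over 4 somites, and it was 0.04 without WT 1. In WT its embryos of 25 somites stood at 11.56 and 11.33 and those of 22 and 21 somites at 11.07 and 11.13, whereas the mutants showed no such order. Its second probe had a slope of 0.19 ± 0.07 (SE), with an unadjusted limma p of 0.0158 and an adjusted p of 0.468. The embryos of high Xist, WT 3 (22 somites) and mutant 4 (21 to 22 somites), were the lowest on that probe. Both lie toward the lower end of the somite range, so sex and somite number are partly confounded in these slopes. The slope of the second probe without these embryos was not tested.

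Fut4 had a slope of -0.09 ± 0.06 (SE) per somite (-0.04 without WT 3 and -0.19 without WT 4) and Dnd1 one of -0.12 ± 0.10, the steepest of the 10. That of Dnd1 turned to 0.07 without WT 4, the embryo of 21 somites that stood highest at 9.13. Nanos3 had -0.07 ± 0.07, with 0.02 without WT 1. Alpl had 0.05 ± 0.05, with 0.02 without WT 3 and 0.13 without WT 4. Those of Prdm1 (0.02 ± 0.09), Tfap2c (0.01 ± 0.05), Prdm14 (-0.0071), Ifitm1 (-0.0016) and Ifitm3 (0.0015) were all close to 0. The intervals of the 10 slopes together ran from -0.35 to 0.22.

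**Figure D4:**
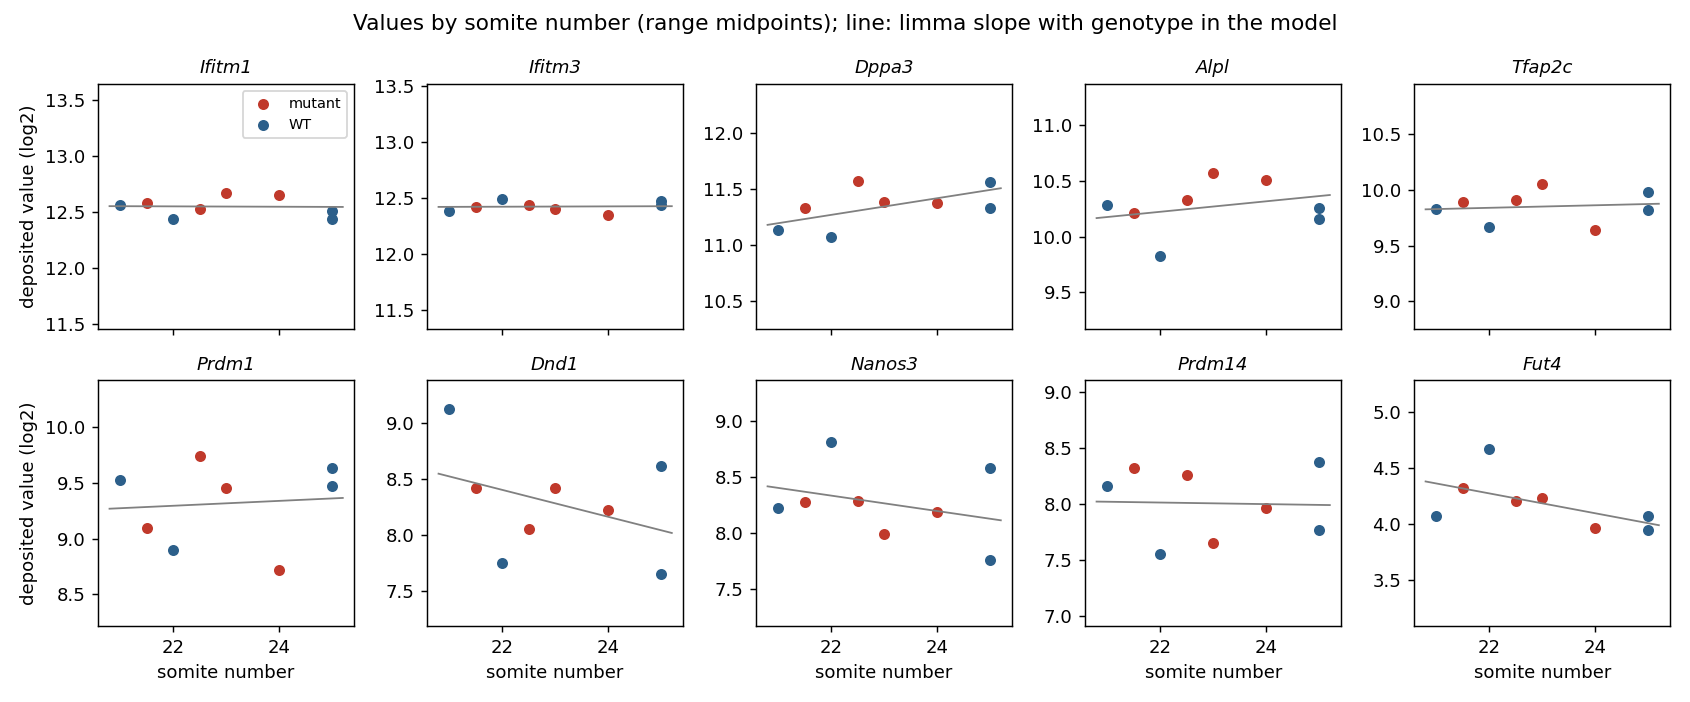
Deposited log2 values (vertical axes, each spanning the same width) against somite number (horizontal axes) for each member, mutants in red and WT in blue, with the limma slope as a grey line. The line of Dnd1 falls and that of Dppa3 climbs, with intervals that hold 0, and the lines of Ifitm1 and Ifitm3 are flat.

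The slopes were also compared between genotypes. The slope was higher in mutants for 4 of the 10 members and for 53.0% of all genes. The slopes had opposite signs in mutants and WT for 6 members, yet a test of the difference in limma gave unadjusted p-values from 0.286 to 0.944. At an unadjusted p under 0.05 there were 0 members, against 4.52% of all genes (902; 2.14% with the higher slope in mutants and 2.38% with the lower), and 0 members and 0% of all genes passed after adjustment. With 4 embryos per genotype, of which 2 WT embryos share 25 somites, these slopes rest on few points.

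Genes tied to the members by family or function were read in the same way, and 0 of them passed in limma. Of the 21 measured paralogues (of 22), 8 lay above 0 for mutant minus WT, with a median of -0.06. Of these, Alpi, the intestinal phosphatase, differed by -0.30 ± 0.17 (SE), Nanos2, which acts in the later male germ line, by -0.20 ± 0.14 and Tfap2b by -0.18 ± 0.13. Alpi, Nanos2 and Tfap2b lay low, at the 39.1st, 37.3rd and 19.2nd percentiles of gene means. Proteins that bind or carry out the work of the members, among them the arginine methyltransferase partner of Prdm1 (Prmt5), the Prdm14 partner Cbfa2t2 and the deadenylase subunits recruited by Nanos proteins, had 9 of 18 measured genes above 0 (19 listed) and a median difference that rounds to 0. Cnot10 differed by -0.22 ± 0.19, and the Polycomb genes Eed and Ezh2 by 0.25 ± 0.24 and 0.14 ± 0.16.

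Other germ cell and pluripotency genes lay above 0 for 18 of 23 measured (25 listed), with a median of 0.11, while the median over all genes was -0.02 and 44.6% of all genes lay above 0. Of the 23 genes, 20 were above the median level, and over all genes above that level the median difference was 0.04. Their mean was from 8.25 to 8.51 in mutants and from 8.05 to 8.64 in WT, with WT 3 lowest and WT 1 highest. Dazl, a germ cell translation factor, differed by 0.24 ± 0.14 (SE), Lin28a, an inhibitor of let-7 maturation, by 0.24 ± 0.20 and Tfcp2l1, a naive pluripotency factor, by 0.16 ± 0.13. Dazl lay at the 19.3rd percentile of gene means, so like Fut4 it cannot be called expressed or absent. Genes of the BMP signal lay above 0 for 6 of 11 measured (12 listed), with a median of 0.07. The receptors Bmpr1a and Bmpr2 differed by 0.31 ± 0.20 and 0.26 ± 0.15, and the ligand Bmp4 by 0.22 ± 0.18.

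Genes listed as repressed when PGCs are specified lay above 0 for 3 of 12 measured (13 listed), with a median of -0.06. The arrays hold no other cell type, so repression of these genes in PGCs, Ehmt2 among them, was not tested. Ehmt2 (G9a), which places a repressive histone H3 methyl mark that PGCs lose as they migrate, stood at 7.05, 6.91, 6.80 and 6.93 in mutants and at 6.83, 6.38, 6.57 and 6.67 in WT. It lay at the 70.5th percentile of gene means. Its difference of 0.31 ± 0.14 (SE) had an unadjusted limma p of 0.0467 and an adjusted p of 0.973. Fgf8 and Hoxb1, genes of the early mesoderm programme, differed by -0.15 ± 0.15 and -0.14 ± 0.16.

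Markers of other cells also gave 0 genes past the limma test. Of the hindgut list Krt18 differed by -0.86 ± 0.44 (SE), with WT 4 at 9.47, Spink1 by 0.84 ± 0.54, with mutant 4 at 6.50 and all others from 3.33 to 3.85, and Trh by 0.54 ± 0.38. Of the 9 primitive red cell markers 0 lay above 0, and of the 12 macrophage markers 2 did, beside 44.6% of all genes. Most of these markers were dim, with 3 of the 9 and 2 of the 12 above the median level. The median difference was -0.02 over all genes and 0.04 over genes above that level. No share was taken over dim genes alone. Hbb-y differed by -0.49 ± 0.27, Hba-x by -0.42 ± 0.29 and Epor by -0.27 ± 0.19, and for each of them WT 3 was the highest array: Hbb-y stood at 5.62 there and at most at 4.82 elsewhere, Hba-x at 6.65 and at most at 5.55, and Epor at 6.34 and at most at 5.99. Tyrobp differed by -0.44 ± 0.19, with WT 1 highest at 6.54, Ptprc by -0.41 ± 0.19, with WT 3 highest at 4.83, and Lyz2 by -0.34 ± 0.23. Of the endothelial list Tie1 (-0.18 ± 0.17), Emcn (-0.12 ± 0.13) and Kdr (0.12 ± 0.15) had the smallest p-values, and of the mesenchymal list Tbx6 (-0.27 ± 0.19), Osr1 (0.20 ± 0.20) and Pdgfra (-0.18 ± 0.20).

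The genes whose values over the 8 arrays followed the mean of the 10 members most closely were Ptcd1 (Pearson's r = 0.987), Anp32e (0.983), Clcc1 (0.952), Apool (0.949) and Eif2b2 (0.943), out of 9959 genes of above-median level. The mean of the members varied only between 9.32 and 9.53, and an r above 0.9 was reached by 0.12% of these genes. The points share their arrays, and an r picked as the highest of many over 8 arrays is a description.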

How the data were processed

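Gene expression was measured in sorted PGCs of 8 single embryos, with 1 array each. The deposited values were taken as log2 from their range; the authors' background correction, normalization and genome build: not given in the sources used here. Per the labels' protocols, RNA was amplified (NuGEN Ovation FFPE WTA) and labelled with biotin. Of 35557 probes, 21789 carried a single gene symbol in the platform annotation, and 19938 genes were tested on their probe of highest mean. No scanner values were used, so detection and saturation could not be assessed. Precision is limited by having 8 arrays.

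Genotype, the slope per somite (with genotype) and the difference of slopes between genotypes were fitted with limma 3.58.1 in R 4.3.3 over all genes, with Benjamini-Hochberg adjustment at 0.05, and tested on simulated data. The p-values set each difference or slope against the spread between embryos, with the variance of each gene drawn toward a common value. Same-numbered mutant and WT embryos deviated from their group means with correlations of -0.049, 0.044, -0.194 and 0.097. Those of unlike number ran from -0.268 to 0.248. Such correlations cannot show whether same-numbered embryos shared a litter or a day of processing. The main fits treated the embryos as unpaired.

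The members and lists were chosen with earlier results of these data known. Named besides the members are Ror2, Pou5f1, up to 3 genes of smallest unadjusted p per list and the 5 genes most like the members' mean. Kit is a germ cell marker listed with Pou5f1. Ifitm2, Ifitm6 and Fut9 were named after their values were seen. Alternatives covered normalization, a filter on dim genes, the probe per gene, the variance prior, left-out embryos, somite ranges, covariates and the replicate block. The other probes of Dppa3 and Ifitm1 were added after seeing the data.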

Additional observations from a re-analysis of the deposited data

How the results depend on the processing

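In each alternative run, 0 of the 10 members passed the adjusted limma threshold for the genotype difference, the somite slope or the difference of slopes. An unadjusted p under 0.05 was reached by Ifitm1 for the genotype difference (variance prior following the level), Dppa3 for the slope (that prior, the mean of its probes and its other probe), Dnd1 for the slope without WT 3, Fut4 for the slope without WT 4 and Prdm1 for the difference of slopes without mutant 4, alone or with WT 3. Signs and sizes of members' values, member counts and counts over all genes did change, and the cause was not tested. The genotype difference changed sign under quantile normalization for Fut4 (0.07281) and Tfap2c (-0.007354), under median centring for Dnd1 (0.0502), Fut4 (0.0543) and Ifitm3 (0.02045), and without WT 3 and mutant 4 for Fut4 (0.1096), Prdm14 (-0.1475) and Tfap2c (-0.01211). Leaving out 1 embryo at a time gave differences from -0.2233 to 0.271 for Dnd1, from -0.08978 to 0.1557 for Fut4, from -0.345 to 0.005319 for Nanos3, from -0.2927 to 0.04475 for Prdm1, from -0.0579 to 0.2211 for Prdm14 and from -0.0142 to 0.1243 for Tfap2c. The slope changed sign without WT 3 and mutant 4 for Alpl (-0.006001), Prdm1 (-0.06037) and Tfap2c (-0.003989), under quantile normalization for Tfap2c (-0.004972), under median centring for Ifitm1 (0.02255) and Prdm14 (0.01706), with the mean of all probes (0.004457) or the other probe (0.01052) for Ifitm1, at the lower end of the somite range for Ifitm1 (0.001511) and Ifitm3 (-0.0001579) and at its upper end for Prdm14 (0.008694). Without 1 embryo, slopes ran from -0.2264 to 0.06544 for Dnd1, from -0.007799 to 0.0214 for Ifitm1, from -0.01813 to 0.00789 for Ifitm3, from -0.1585 to 0.02175 for Nanos3, from -0.03191 to 0.08809 for Prdm1, from -0.09119 to 0.0511 for Prdm14 and from -0.01547 to 0.04115 for Tfap2c.

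Without 1 embryo the sign held but the size moved for the differences of Dppa3 (from 0.07219 to 0.2387) and Alpl (from 0.1738 to 0.3382). The same held for the slopes of Dppa3 (from 0.04257 to 0.09113), Alpl (from 0.01796 to 0.1286) and Fut4 (from -0.1921 to -0.04398).

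With the replicate block, slopes changed sign for Ifitm1 (0.02942), Ifitm3 (-0.005031) and Prdm14 (0.05992). Over all genes the block called 0 genes for genotype and 0 for the slope, as without it, and 70 for the difference of slopes, with a single residual degree of freedom. Genes at an unadjusted p under 0.05 for the genotype difference (934) numbered 538 among genes above the median level and from 729 to 1715 without 1 embryo, highest without WT 1. For the slope (1942) they numbered 1046 among genes above the median level and 675 with the block. For the difference of slopes (902) they numbered 546 among genes above the median level. Only 9969 of the 19938 genes were tested above that level, so the counts there cannot be set directly against those over all genes. The slope called 0 genes, but from 0 to 2 without 1 embryo (2 without WT 4), 1 at the upper end of the somite range and 5 without WT 3 and mutant 4. WT 3 was lowest for 1 member after quantile normalization and for 6 after median centring or without mutant 1, in place of 4. The members with a larger SD in WT numbered 4 without WT 3, in place of 7. With 4 embryos per genotype, the median SE over all genes was 0.17 for a difference and 0.0567 per somite for a slope, which limits what these arrays can show.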
